A study of Mus musculus with 2 samples.

Results

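Endocardial-to-mesenchymal transition regulators were described here as 9 genes chosen by symbol among the 32285 genes listed: the transcription factors Snai1, Snai2, Twist1 and Sox9, the ligands Tgfb1 and Tgfb2, the receptors Tgfbr2 and Tgfbr3, and Nfatc1. All 9 were found, 1 row each. They were measured by single-cell RNA-seq in mouse embryonic hearts at E10.5. Each genotype was 1 library, made from a pool of 4 hearts. The library labelled wildtype was BubR1+/+ and the library labelled knockout was BubR1fl/fl, and both were heterozygous for Nkx2.5-cre, which expresses Cre recombinase in cardiac progenitors. The floxed allele therefore recombines in cells with a history of Nkx2.5 expression, not in every cell of the heart. BubR1 is the product of Bub1b and belongs to the spindle assembly checkpoint. The comparison asked how its loss bears on the cells of the embryonic heart.

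In the atrioventricular canal and outflow tract of the embryonic heart, some endocardial cells, the endothelial lining, lose their junctions, enter the matrix between endocardium and myocardium and become the mesenchyme of the cushions from which valves form. Tgf-beta and Bmp ligands from the myocardium and endocardium start this transition through surface receptors. Transcription factors of the Snail and Twist families act in it, Sox9 is needed in the cushion mesenchyme, and Nfatc1 marks endocardial cells that stay in the valve lining.

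The sequences of 4 members are shown because the first 3 were higher in mesenchymal than in endothelial cells, and the last was lower there and also lower in the library labelled knockout. Each is the 250 bases before the RefSeq start site on GRCm38.p6, the assembly known as mm10, written 5′ to 3′ on the gene's strand. Windows from the RefSeq promoter table were used for 5 of the 9 members. Snai2, Sox9, Tgfbr3 and Nfatc1 are named only, which does not mean that the promoter table lacks them. Capitals mark matches to the E-box CANNTG, the kind of site that Snail and Twist proteins bind, and to the core GGAAA on either strand, which NFAT proteins bind. No E-box match overlapped a GGAAA match in these windows.
Snai1 (chr2:167537945-167538194, plus strand): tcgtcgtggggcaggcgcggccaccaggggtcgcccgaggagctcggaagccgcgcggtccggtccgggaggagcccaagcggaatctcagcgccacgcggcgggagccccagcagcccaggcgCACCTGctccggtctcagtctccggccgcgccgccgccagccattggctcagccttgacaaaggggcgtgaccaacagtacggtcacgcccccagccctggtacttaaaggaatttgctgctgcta
Twist1 (chr12:33957421-33957670, plus strand): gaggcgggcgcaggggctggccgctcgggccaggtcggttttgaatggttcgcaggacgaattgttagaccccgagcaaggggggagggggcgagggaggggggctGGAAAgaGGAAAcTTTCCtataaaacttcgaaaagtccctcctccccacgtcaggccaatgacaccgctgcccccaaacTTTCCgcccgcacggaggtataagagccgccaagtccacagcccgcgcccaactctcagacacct
Tgfb2 (chr1:186705990-186706239, minus strand): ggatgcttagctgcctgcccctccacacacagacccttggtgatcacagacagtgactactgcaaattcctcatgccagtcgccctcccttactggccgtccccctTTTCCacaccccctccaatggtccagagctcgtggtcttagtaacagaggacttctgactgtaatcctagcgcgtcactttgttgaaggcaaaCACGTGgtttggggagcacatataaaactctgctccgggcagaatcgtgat
Tgfbr2 (chr9:116175364-116175613, minus strand): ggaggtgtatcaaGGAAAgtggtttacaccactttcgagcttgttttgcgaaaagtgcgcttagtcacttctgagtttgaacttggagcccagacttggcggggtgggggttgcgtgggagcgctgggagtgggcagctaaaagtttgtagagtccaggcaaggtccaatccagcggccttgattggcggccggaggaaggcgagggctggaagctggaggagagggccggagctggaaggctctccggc
The Snai1 window held 1 E-box, CACCTG, which begins 126 bases before the start site and is the Snail-type form CAGGTG read on the other strand. Tgfb2 held 1 E-box, CACGTG, 51 bases before its start site, and 1 GGAAA match. The Twist1 window held 4 GGAAA matches and no E-box, and Tgfbr2 held 1 GGAAA match and no E-box. The window of Tgfb1, the other member with a window used here, is not printed and held 0 matches to either. Among all 32851 promoter windows of this length, 66.2% held CANNTG, 17.2% held CAGGTG and 55.6% held GGAAA. A match says only that the letters are present.

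After filtering, 7440 cells labelled wildtype (median 9504.5 UMIs) and 5966 labelled knockout (median 17042.5 UMIs) were kept. A UMI is a tag that marks 1 captured transcript. Cells were classed by markers that include none of the 9 genes, and each class is named for its markers alone. Of cells labelled wildtype and knockout in turn, 1236 and 734 were endothelial, 1872 and 475 mesenchymal, 649 and 1758 epicardial, 646 and 629 cardiomyocytes, 2012 and 1225 erythroid, and 263 and 59 macrophages. The endothelial class covers endocardium and vessels. All 8 of its defining markers had UMIs in both libraries, with a summed level of 3279 and 2473 CPM (UMIs scaled to a common total per class). For mesenchymal cells the 8 markers summed to 6849 and 3852 CPM. Between 4 and 103 cells of a library in these 4 cardiac classes lay within 0.02 of the gate. The libraries shared 8 barcodes. Bub1b itself was at 57.1 CPM in cardiomyocytes labelled wildtype and 30.7 in those labelled knockout, but at 23.3 and 44.4 in epicardial cells and 26.3 and 33.6 in endothelial cells. The sources used here do not name the floxed exons and reads come from the 3′ end, so these levels do not check the labels. With 1 library per genotype no difference between genotypes could be tested. Every interval below is a 95% interval for counting error only, and a difference between the libraries cannot be told apart from a difference between 2 pools of embryos.

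The 9 genes divided into those higher in mesenchymal cells and those higher in endothelial cells, with the same division in both libraries. Higher by at least 2-fold in mesenchymal cells were Snai1, Snai2, Twist1, Sox9 and Tgfb2, 5 of 9, where 18.0% of genes passed that fold in the library labelled wildtype and 12.2% in the library labelled knockout. Tgfb1, Tgfbr2, Tgfbr3 and Nfatc1, 4 of 9, were lower by at least 2-fold, against 9.75% and 8.63% of genes. The median of all genes with at least 200 UMIs lay at 0.07 and 0.11 on the log2 scale.

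**Figure D1:**
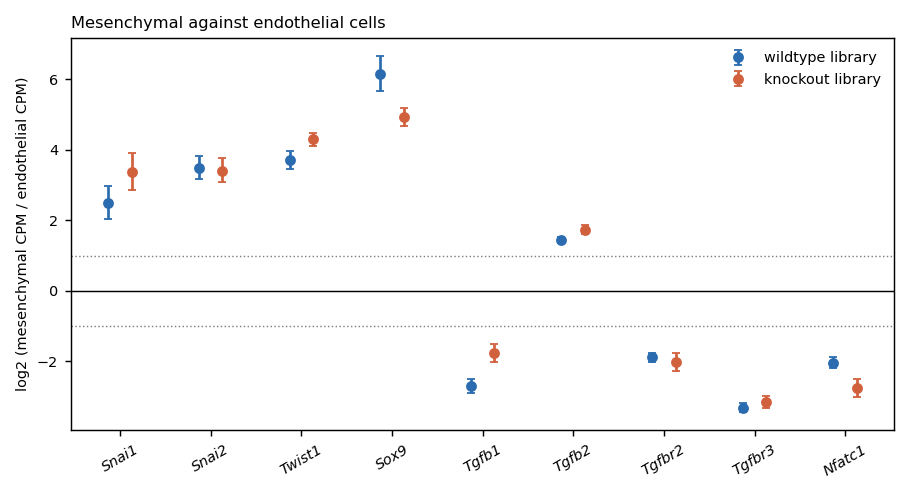
Log2 ratio of the level (CPM) in mesenchymal to that in endothelial cells for each gene and library; bars are exact 95% counting intervals, the solid line is equality and dotted lines mark 2-fold. Of the 9 genes 5 lie above the upper dotted line and 4 below the lower one in both libraries; the endothelial level of Sox9 is not above that of erythroid cells.

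Sox9, a transcription factor of cartilage and valve mesenchyme, was at 3.47 CPM in endothelial and 247 CPM in mesenchymal cells labelled wildtype, and at 14.9 and 456 CPM in those labelled knockout. The endothelial levels rested on 37 and 147 UMIs and were not above those of erythroid cells, 13.0 and 15.8 CPM, which should lack Sox9, so the size of its ratio is not read as a measured fold. Twist1, a basic helix-loop-helix factor of mesenchymal precursors, went from 13.1 to 173 CPM (log2 3.72) and from 28.4 to 558 CPM (4.30). Snai2, a repressor of junction genes, was at 7.98 and 89.4 CPM in the library labelled wildtype (log2 3.49) and 8.54 and 90.7 in the library labelled knockout (3.41). Snai1, its paralog with the same kind of targets, was at 4.04 and 22.6 CPM (2.48), and at 3.66 and 37.5 CPM (3.36). In the library labelled wildtype the endothelial intervals of Twist1 and Snai2 overlapped those of erythroid cells, at 10.1 and 5.61 CPM. The size of those ratios is therefore uncertain. These 4 factors were thus below 30 CPM in the endothelial class of either library and several-fold higher in mesenchyme.

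Between the ligands the direction was opposite. Tgfb2 was higher in mesenchymal than in endothelial cells, at 292 against 108 CPM in the library labelled wildtype and 235 against 70.8 in the library labelled knockout. Tgfb1 was at 15.9 against 103 CPM and at 23.3 against 79.1 CPM, so that mesenchyme held the lower level in each. Tgfb1 was highest in megakaryocytes, at 503 and 477 CPM (24 and 110 cells), followed by macrophages at 151 and 146 CPM. In the library labelled wildtype the macrophage interval overlapped that of vascular endothelial cells, at 127 CPM. Erythroid cells held only 5.40 and 14.6 CPM. Tgfb2 was also high in epicardial cells, at 318 and 244 CPM, and in cardiomyocytes, at 118 and 145 CPM. The cardiomyocyte and endothelial intervals overlapped in the library labelled wildtype.

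The receptors followed the endothelium. Tgfbr3, the co-receptor betaglycan that presents Tgfb2, had 66.1% of its UMIs labelled wildtype and 59.5% of those labelled knockout in endothelial cells. Its level was 347 and 386 CPM there against 34.9 and 43.4 CPM in mesenchyme, log2 ratios of -3.32 and -3.15. Tgfbr2, the signalling receptor that binds the ligands, was at 156 and 95.2 CPM in endothelial against 42.1 and 23.6 CPM in mesenchymal cells. Macrophages held 158 and 74.6 CPM of it. Nfatc1 was at 104 and 148 CPM in endothelial and 25.3 and 21.8 CPM in mesenchymal cells (log2 -2.04 and -2.76).

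**Figure D2:**
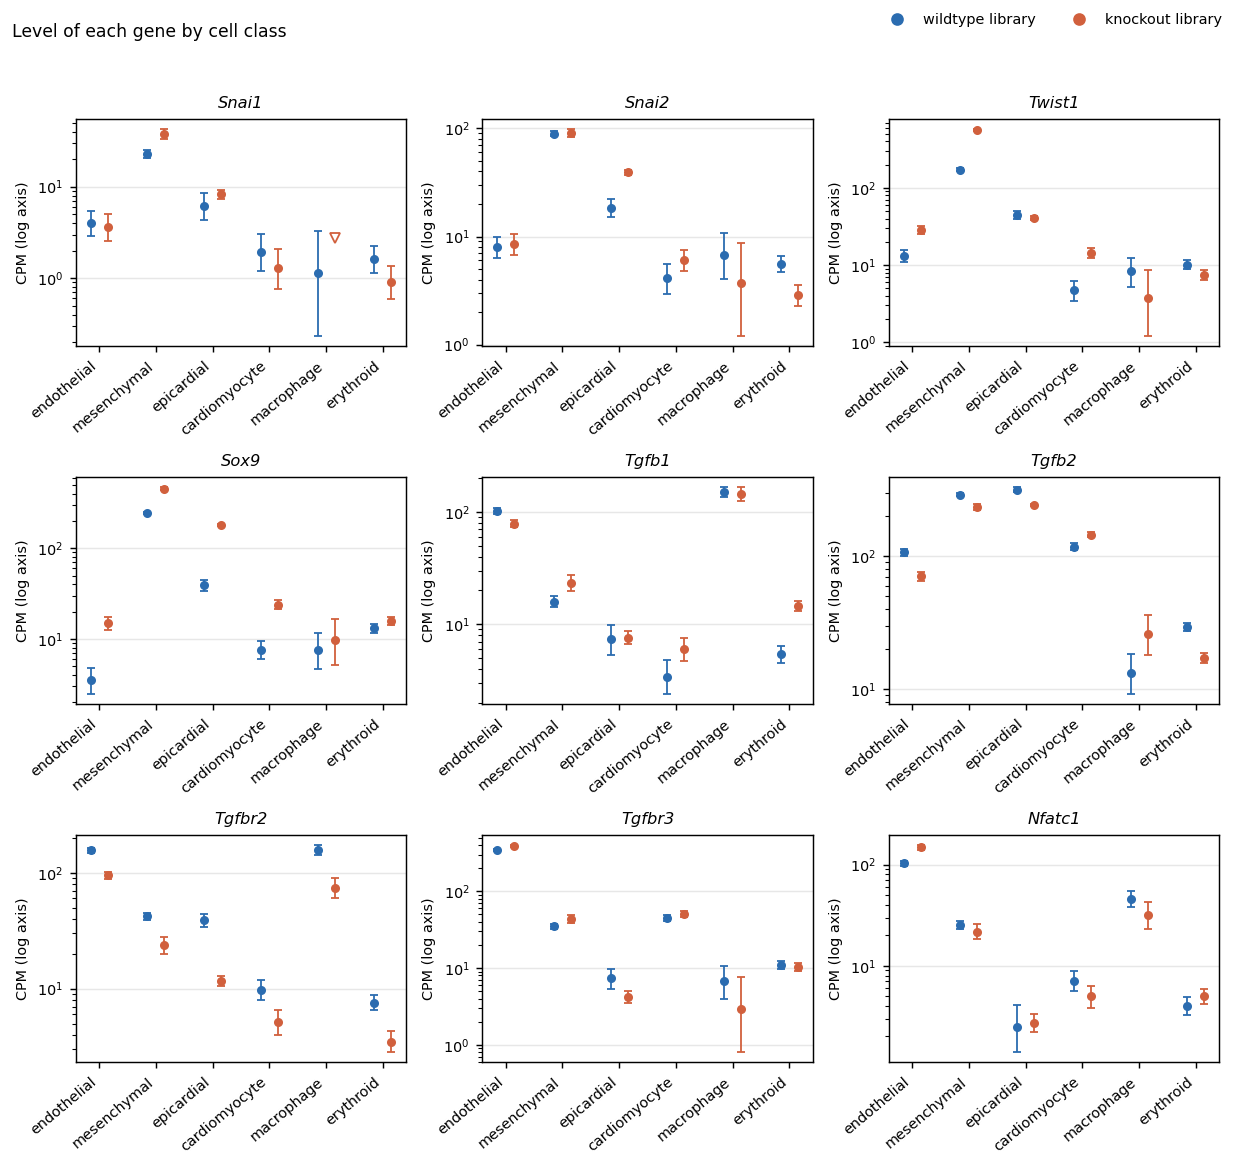
Level of each of the 9 genes in 6 cell classes (CPM, log axis) in the library labelled wildtype (blue) and the library labelled knockout (orange); bars are exact 95% Poisson intervals and the open triangle is the upper limit of a count of 0. The 4 transcription factors are highest in mesenchymal cells, Tgfbr3 and Nfatc1 in endothelial cells, and Tgfbr2 is lower in the library labelled knockout in each class.

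Comparing the cushions alone gave the same order. Cells gated as cushion mesenchyme (308 and 267 cells) were set against cushion endocardial cells (149 and 108 cells), both by subtype markers. In the library labelled wildtype 5 of 9 genes were at least 2-fold higher in the mesenchyme, where 12.9% of genes were, and 4 of 9 lower, where 9.94% were. For the library labelled knockout it was 4 of 9 (background 11.0%) and 4 of 9 (7.85%), with Tgfb2 at 135 and 224 CPM below the fold. Twist1 went from 37.7 to 613 CPM and from 64.7 to 855 CPM, and Sox9 from 10.2 to 580 and from 24.7 to 594 CPM. Snai1 was at 7.85 and 2.0 CPM in cushion endocardial cells, from only 10 and 3 UMIs, and at 37.2 and 49.7 CPM in cushion mesenchyme. Nfatc1 was at 246 against 52.8 CPM and 308 against 29.9 CPM, so that cushion mesenchyme still held a level of it. Genes of junctions and matrix were set beside these. Cdh5, the endothelial cadherin and a marker of the endothelial gate, was at 396 against 3.91 CPM in the library labelled wildtype. Cdh2, the cadherin of mesenchyme, was at 30.6 against 432 CPM, and Has2, the hyaluronan synthase of the cushions, at 21.2 against 162 CPM.

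Barcodes that carried both endothelial and mesenchymal markers numbered 78 in the library labelled wildtype and 22 in the library labelled knockout. Sox9 at 48.4 and 148 CPM, Twist1 at 48.4 and 158 CPM and Tgfbr3 at 173 and 198 CPM lay between the levels of the endothelial and mesenchymal classes. Nfatc1 was at 126 CPM (102 to 153) and 185 CPM (144 to 234), intervals that overlapped those of the endothelial class, 98.0 to 110 and 141 to 156 CPM. Doublets, droplets with 2 cells, would also hold both marker sets. Removal of the highest doublet scores took 27 of the 78 and 2 of the 22, and their part in these levels was not tested.

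Within the endothelium, cushion endocardial cells differed from the rest in Nfatc1, Twist1 and Tgfbr3 in both libraries. Nfatc1 was at 246 CPM in cushion cells and 84.7 CPM in the other endothelial cells labelled wildtype, a log2 ratio of 1.54 (1.35 to 1.73), and at 308 and 119 CPM in those labelled knockout, 1.37 (1.20 to 1.53). Twist1 was higher in the cushion cells by 1.94 (1.41 to 2.46) and 1.57 (1.20 to 1.93). Its level labelled wildtype outside the cushion gate, 9.81 CPM, was not above the 10.1 CPM of erythroid cells. The size of the first Twist1 ratio is therefore not read as a measured fold. Tgfbr3 was lower in the cushion cells, at 137 against 376 CPM and 135 against 431 CPM (log2 -1.46 and -1.67). In the library labelled wildtype 4 of 9 genes were at least 2-fold higher in cushion cells (Snai1, Twist1, Sox9 and Nfatc1), against 6.58% of all genes, and 1 of 9 lower, against 6.60%. With cells thinned to 3000 UMIs, 2 of the 7 genes then measured were higher. The Snai1 and Sox9 ratios rest on 10 and 13 UMIs in the cushion cells, and the Snai1 interval includes 0 (-0.03 to 2.21). Sox9 in these cushion cells, at 10.2 CPM and in 2.01% of thinned cells, was not above the 13.0 CPM and 1.74% of erythroid cells. In the library labelled knockout 3 of 9 were higher (Twist1, Tgfb2 and Nfatc1), against 4.81%, and 1 lower, against 6.26%. Tgfb2 stood at 145 against 103 CPM in the one and 135 against 59.2 CPM in the other. Tgfb1 and Tgfbr2 lay within 0.39 of 0 on the log2 scale in both libraries.

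Chamber endocardial cells, 397 and 128 in number, held the highest Tgfbr3 of any group, 563 and 598 CPM, and less Nfatc1 than cushion cells, 72.7 and 109 CPM. Among the 10 genes furthest above the rest of the endothelial class, 2 and 1 were their own gate markers. For cushion cells 4 and 1 were, so both subtypes were less sharply marked in the library labelled knockout. Vascular endothelial cells could be described in the library labelled wildtype (177 cells; 17 in the other). Against chamber cells of the same library they were lower by at least 2-fold in 3 of the 7 genes with enough UMIs, where 14.4% of all genes were: Tgfbr3 at 94.1 CPM, Tgfb2 at 44.3 against 141 CPM, and Twist1 at 2.99 against 12.2 CPM, the first below its 10.1 CPM in erythroid cells. Snai2 was the 1 higher by 2-fold, at 11.5 against 5.47 CPM from 23 and 18 UMIs, where 7.39% of genes were higher. A like order appeared when endothelial cells were ranked by their cushion marker score and cut into 5 equal parts. The gate uses the same score, so the ranking is not separate support. Levels did not change evenly over the parts, and Twist1 labelled knockout was lowest in the middle part, at 12.1 CPM. From the lowest to the highest part Nfatc1 went from 79.3 to 202 CPM and from 77.8 to 264 CPM, Twist1 from 6.83 to 29.4 CPM and from 17.4 to 58.0 CPM. The 6.83 CPM of Twist1 labelled wildtype was not above the 10.1 CPM of erythroid cells. Tgfbr3 was lowest in the top part, at 237 and 230 CPM.

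**Figure D3:**
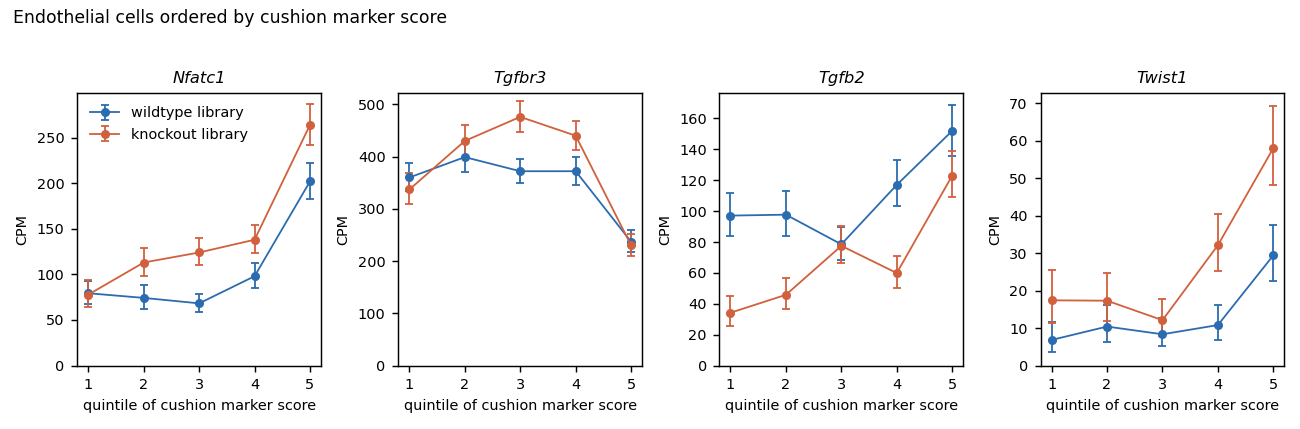
Levels (CPM) of Nfatc1, Tgfbr3, Tgfb2 and Twist1 in endothelial cells ranked by cushion marker score and cut into 5 equal parts, by library; bars are exact 95% Poisson intervals. Nfatc1, Tgfb2 and Twist1 are highest and Tgfbr3 is lowest in the top part of each library.

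Differences between the libraries were compared within each class. In endothelial cells Twist1 was 13.1 and 28.4 CPM, and Sox9 3.47 and 14.9 CPM, so that 2 of 9 genes were at least 2-fold higher in the library labelled knockout, against 2.27% of all genes, and 0 of 9 lower, against 8.33%. The log2 ratios were 1.11 (0.81 to 1.41) and 2.10 (1.58 to 2.67). The Twist1 call did not hold with cells thinned to 3000 UMIs (0.62) or with a stricter gate (0.86), and the shares of thinned cells with its UMI, 4.05% (3.02 to 5.30) and 5.72% (4.15 to 7.66), overlapped. At an equal depth of 3000 UMIs, 0.809% and 3.54% of endothelial cells held a Sox9 UMI (1.94% and 7.49% at full depth). Erythroid cells, which should lack Sox9, gave 1.74% and 1.96% at the same depth, with 75.5% and 43.2% of their UMIs from hemoglobin and median depths of 11466 and 20883 UMIs. The endothelial share labelled wildtype lies below the erythroid share and is not read as expression. Hemoglobin UMIs lower the erythroid levels and shares of all other genes, more so in the library labelled wildtype. Erythroid cells are therefore only a rough guide to background, here and in the other classes. Free RNA could give at most 1.21 and 2.28 CPM of Sox9 in the class. Tgfbr2 was at 156 and 95.2 CPM (log2 -0.71), Tgfb2 at 108 and 70.8 CPM (-0.60) and Tgfb1 at 103 and 79.1 CPM (-0.38). Nfatc1 was at 104 and 148 CPM (0.51), and Tgfbr3 at 347 and 386 CPM (0.15). The make-up of this class also differed. No subtype was called for 513 of 1236 cells labelled wildtype and 481 of 734 labelled knockout, and 177 and 17 were vascular. Its part in these ratios was not tested. In chamber cells Tgfb2 was at 141 and 67.0 CPM, a ratio of -1.07 (-1.36 to -0.79), while in cushion cells it was at 145 and 135 CPM (-0.10). There 1 of 8 genes with enough UMIs was higher by 2-fold in cushion cells, Sox9 from 13 and 37 UMIs (background 2.64%), and 0 lower (7.77%). In chamber cells 2 of 8 were higher (3.03%), Snai2 and Sox9 from 18 and 24, and 8 and 20 UMIs, and Tgfb2 was the 1 lower (7.35%). The Snai2 ratio of 1.15 changed sign in thinned cells, to -0.69, with its UMI in 2.52% and 1.56% of them, so no direction is read from it. Sox9 in chamber cells, at 2.43 and 10.2 CPM, was below its erythroid level in each library.

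In mesenchymal cells Twist1 was at 173 CPM in the library labelled wildtype and 558 CPM in the library labelled knockout, a log2 ratio of 1.69 (1.62 to 1.76). Sox9 was at 247 and 456 CPM (0.89) and Snai1 at 22.6 and 37.5 CPM (0.73), while Snai2 was at 89.4 and 90.7 CPM (0.02). Twist1 alone was past 2-fold, 1 of 9 against 2.75% of all genes higher, and 0 of 9 were lower, against 13.6%. The class differs in its make-up between the libraries, and the part of this in the ratios above was not tested. Groups marked by Tnxb and by arterial wall genes held 561 and 256 cells labelled wildtype but 2 and 2 labelled knockout, and these hold little Twist1, 75.7 and 49.6 CPM in the library labelled wildtype against 613 CPM in its cushion mesenchyme. Within the library labelled wildtype, cushion mesenchyme was at least 2-fold above the Tnxb group in 5 of 9 genes (Snai1, Twist1, Sox9, Tgfb1 and Nfatc1; background 6.34%) and below it in 1, Tgfbr3 (8.39%). It was above the arterial wall group in the same 5 genes (background 5.95%) and below it in 0 (8.05%).
Within cushion mesenchyme the ratios of Twist1, Sox9 and Snai1 were smaller than in the whole class. The level intervals of Twist1 still lay apart, at 583 to 645 CPM labelled wildtype and 825 to 886 CPM labelled knockout. Twist1 was at 613 and 855 CPM (0.48), Sox9 at 580 and 594 CPM (0.04, -0.06 to 0.13), Snai1 at 37.2 and 49.7 CPM (0.42) and Snai2 at 108 and 97.7 CPM (-0.15). There 0 of 9 genes passed 2-fold in either direction, where 3.39% of genes were higher and 10.0% lower. Nfatc1 was at 52.8 and 29.9 CPM (-0.82, -1.20 to -0.45) and Tgfbr2 at 37.2 and 22.0 CPM (-0.75). Tgfb2 was at 304 CPM (283 to 326) labelled wildtype and 224 CPM (209 to 240) labelled knockout. Among other mesenchymal cells Sox9 was at 281 and 287 CPM, and the intervals of Snai1, Snai2, Tgfb1 and Tgfb2 also overlapped between the libraries. Those of Twist1 (132 and 194 CPM), Tgfbr3 (34.2 and 70.3), Nfatc1 (25.5 and 12.2) and Tgfbr2 (37.3 and 25.4) did not.

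**Figure D4:**
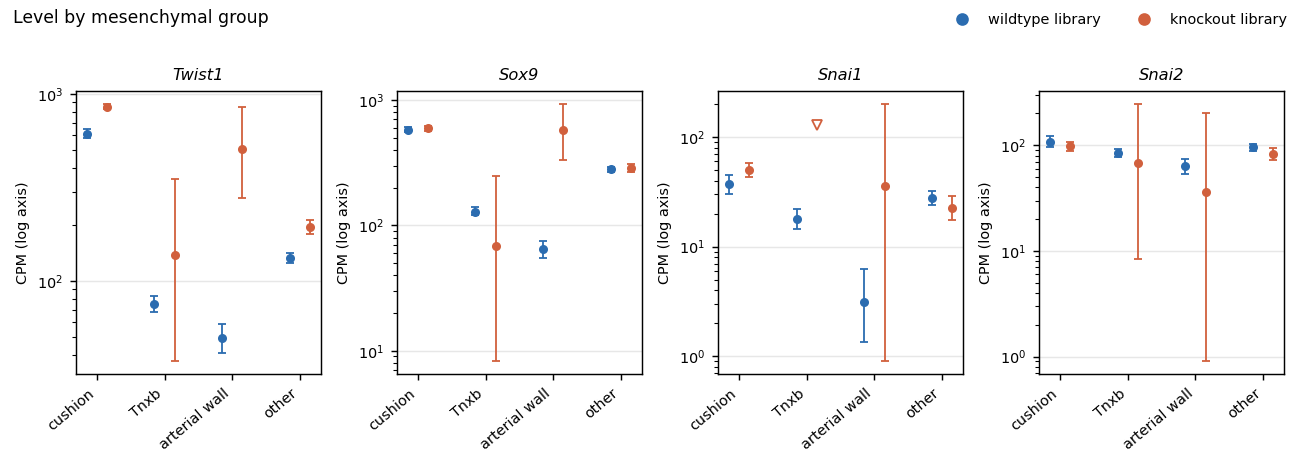
Levels (CPM, log axis) of Twist1, Sox9, Snai1 and Snai2 in 4 mesenchymal groups by library; bars are exact 95% Poisson intervals, and in the library labelled knockout the Tnxb and arterial wall groups hold 2 cells each, so their points are very uncertain. Twist1 and Sox9 are highest in cushion mesenchyme in the library labelled wildtype, while Snai2 differs less among groups.

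In epicardial cells, the outer layer of the heart, Sox9 was at 38.9 CPM in those labelled wildtype and 181 CPM in those labelled knockout, a log2 ratio of 2.22 (2.03 to 2.42), and at equal depth 9.55% and 34.5% of cells held its UMI (130 of 649 and 1421 of 1758 cells at full depth). Erythroid cells gave 1.74% and 1.96% at equal depth, shares that their hemoglobin UMIs lower. Snai2 was at 18.5 and 39.2 CPM (1.09, 0.81 to 1.38), and Tgfbr2 at 38.8 and 11.7 CPM (-1.73, -1.96 to -1.49). Of 9 genes 2 were higher past 2-fold, against 6.93% of all genes, and 1 was lower, against 12.0%. The 8 mesenchymal markers summed to 5088 CPM in epicardial cells labelled wildtype and 1991 CPM in those labelled knockout, and the 8 epicardial markers to 3321 and 2370 CPM. The part of these markers in the result was not tested.

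In cardiomyocytes Twist1 was at 4.68 and 14.4 CPM (log2 1.62) and Sox9 at 7.51 and 23.7 CPM (1.66), 2 of 9 past 2-fold against 5.41% of all genes, and 0 of 9 were lower, against 4.67%. Free RNA could supply up to 3.24 of the 4.68 CPM of Twist1 and 5.03 of the 7.51 CPM of Sox9 in the library labelled wildtype, but 0.610 and 1.66 CPM in the library labelled knockout. At equal depth 0.929% and 2.54% of cardiomyocytes held a Twist1 UMI, where erythroid cells gave 2.44% and 0.816%, so the first is not above background. For Sox9 the shares were 1.24% and 4.29%, against 1.74% and 1.96% in erythroid cells, so its level labelled wildtype is not above background either and neither ratio is read as a measured fold.

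Tgfbr2, the receptor shown above, was lower in the library labelled knockout in endothelial cells, mesenchyme, epicardium, cardiomyocytes and macrophages, with log2 ratios of -0.71, -0.83, -1.73, -0.93 and -1.08. Their intervals all lay below 0. In macrophages, which come from blood progenitors and were 263 and 59 cells, 158 CPM stood against 74.6 CPM. Macrophages of the library labelled knockout had a median of 22155 UMIs against 9080. Cells thinned to equal depth held a Tgfbr2 UMI in 40.7% and 22.0% of macrophages, 38.6% and 21.9% of endothelial, 12.3% and 5.89% of mesenchymal and 9.71% and 3.92% of epicardial cells. In cardiomyocytes the shares were 1.86% (0.963 to 3.22) and 1.59% (0.765 to 2.90), which overlapped, and the log2 ratio in thinned cells was -0.34. Erythroid cells gave 1.64% and 0.816%, and 7.56 and 3.50 CPM, a background that was itself lower in the library labelled knockout, so the cardiomyocyte difference is not read as expression.

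**Figure D5:**
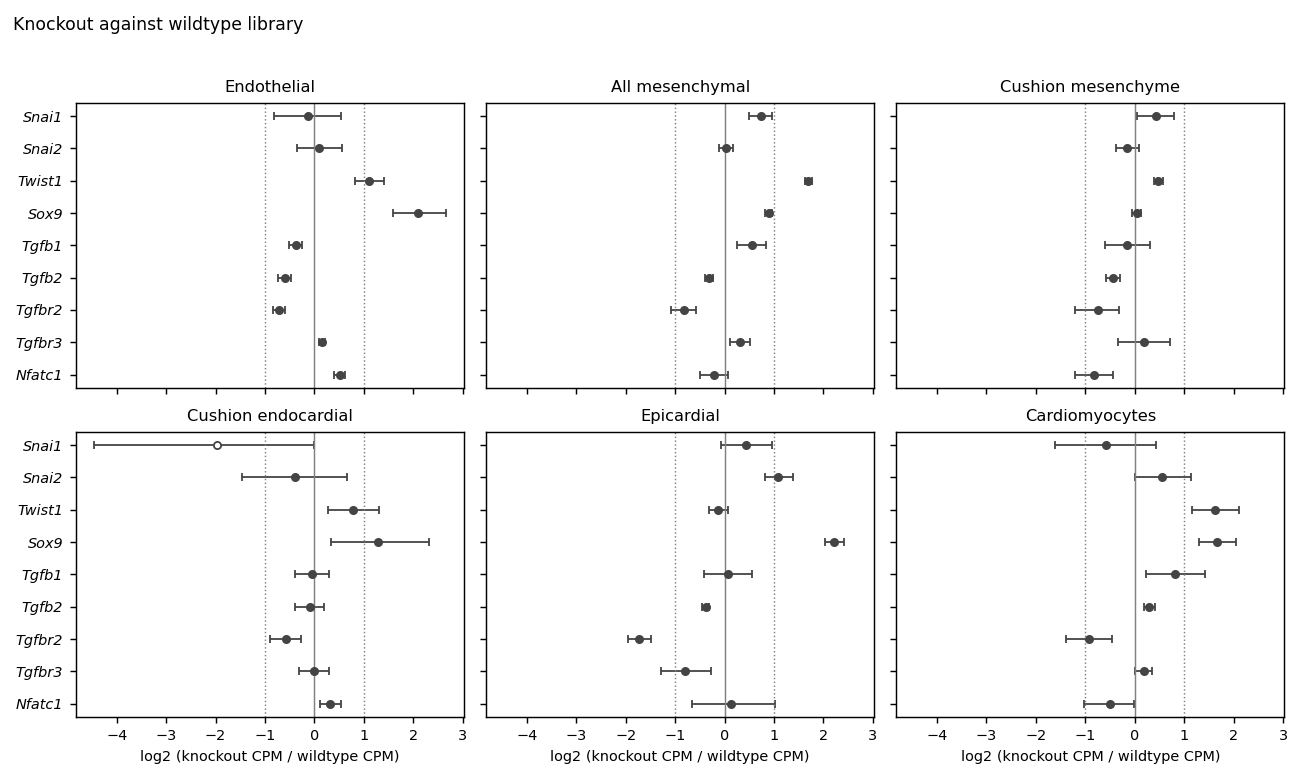
Log2 ratio of the level (CPM) in the library labelled knockout to that in the library labelled wildtype for each gene in 6 cell groups; bars are exact 95% counting intervals, dotted lines mark 2-fold and the open circle is a gene with under 20 UMIs over both. Tgfbr2 lies below 0 in all 6 panels. Sox9 lies above 2-fold in endothelial, cushion endocardial and epicardial cells and cardiomyocytes, and Twist1 in endothelial cells, all mesenchymal cells and cardiomyocytes. Neither does in cushion mesenchyme. Outside epicardial cells, the Sox9 levels labelled wildtype behind these points are not above that of erythroid cells. The same holds for Twist1 in cardiomyocytes, and the endothelial Twist1 call did not hold in thinned cells.

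Other genes of the pathway came from 4 lists. Of the 14 Tgf-beta pathway genes, of which 13 or 14 were measured in a class, 0 were at least 2-fold higher in the library labelled knockout in endothelial, mesenchymal, epicardial cells or cardiomyocytes, and 2, 3, 2 and 1 were lower, where 8.33%, 13.6%, 12.0% and 4.67% of all genes were. Ltbp3, which anchors latent Tgf-beta in the matrix, was lower in each, at 23.7 and 4.67 CPM in endothelial cells, 53.9 and 11.5 in mesenchyme, 33.8 and 3.31 in epicardium and 8.78 and 2.68 in cardiomyocytes. Tgfb3 was at 26.7 and 10.3 CPM in mesenchyme. The lowest log2 ratios of the list, -5.02 in mesenchyme and -3.99 in epicardium, were those of genes other than Ltbp3. The list's median log2 ratio was -0.24 in endothelial and -0.03 in mesenchymal cells, against -0.12 and -0.10 over all genes tested. Of 17 other transcription factors, 15 were measured in endothelial cells with 2 higher and 1 lower (all genes 2.27% and 8.33%), and 16 in mesenchymal cells with 3 higher and 0 lower (2.75% and 13.6%). Msx1, a target of Bmp signalling, was at 5.82 and 19.0 CPM in endothelial and 18.1 and 59.3 CPM in mesenchymal cells. The highest endothelial log2 ratio among these factors, 2.26, was that of another gene. Of the 14 junction and invasion genes, 1 of 14 measured in endothelial cells and 1 of 12 in mesenchymal cells was higher, and 1 was lower in each, beside the same shares of all genes. Has2 was at 4.98 and 18.7 CPM in endothelial and 38.4 and 144 CPM in mesenchymal cells. Cldn5, a tight junction protein of vessels, was at 69.2 and 14.5 CPM in endothelial cells, where the vascular markers summed to 615 and 16.8 CPM. Of the 10 calcineurin and NFAT genes, 1 of 8 measured in cushion endocardial cells was higher (2.64% of all genes) and 0 lower (7.77%). In chamber cells 0 of 8 were higher (3.03%) and 2 lower (7.35%), and in cushion mesenchyme 1 of 9 was higher (3.39%) and 2 lower (10.0%). Rcan1, an inhibitor of calcineurin that NFAT induces, was at 33.0 and 66.7 CPM in cushion endocardial cells and 7.82 and 19.0 CPM in cushion mesenchyme. There Egr1, an immediate early transcription factor, was at 46.6 and 11.4 CPM and Nfatc4 at 46.6 and 18.1 CPM.

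Genes whose level falls as an embryo matures were set beside these results. Hmga2, a chromatin protein of early embryonic tissue, was at 110 and 230 CPM in endothelial cells, 337 and 972 in mesenchyme, 160 and 710 in epicardium, 36.9 and 198 in cardiomyocytes and 14.7 and 65.0 in macrophages, so that the library labelled knockout was the higher in each. Of 7 such genes, 2 of the 6 measured in endothelial cells, 5 of 7 in mesenchyme, 5 of 7 in epicardium and 3 of 7 in cardiomyocytes were at least 2-fold higher there, where 2.27%, 2.75%, 6.93% and 5.41% of all genes were, and 0 were lower. Their part in the differences above was not tested.

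Genes most like each member were sought over 23 sums by class and library, among 12291 genes. The nearest by Pearson's r were Col9a3 (0.945), Twist1 (0.936) and 2610035D17Rik (0.926) for Snai1. For Snai2 they were Pdgfra (0.965), Tvp23a (0.960) and Eya4 (0.951). Sox9 was most like Garnl3 (0.958) and Robo2 (0.955), Tgfb2 most like Afap1 (0.968), Tgfb1 most like Kcnk6 (0.960), Tgfbr2 most like Ctsh (0.912) and Nfatc1 most like Tbkbp1 (0.950) and Calcrl (0.923). Pdgfra is a mesenchymal gate marker. The 23 sums share 2 libraries, and the subtypes among them share their markers with the gate, so these values describe likeness of pattern over these sums.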

How the data were processed

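Single cells of pooled hearts were measured with the 10x 3′ v3.1 kit. The authors ran Cell Ranger 7.1.0 against mm10, per the submitters' processing notes. The matrices they deposited give, for each gene in each barcode, a raw UMI count. They list every barcode and are not normalised. The 9 members and the lists were chosen with earlier results of these data known. Barcodes with at least 3000 UMIs, at least 500 genes and at most 20% mitochondrial UMIs were kept. In the library labelled wildtype 11123 barcodes reached 3000 UMIs, of which 3642 failed the gene minimum and 41 the mitochondrial limit. In the library labelled knockout 6060 did, of which 15 and 79 failed.

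A class was called when the mean of a cell's scaled markers reached 0.2 and stood 0.1 above the next class. Subtypes were called within a class at a z-score of 0.5 that stood 0.5 above the next. The markers were listed with no member among them, and the cut-offs were set after the counts were seen. Counts were summed per class and library and scaled to CPM. Levels have exact Poisson intervals, ratios exact conditional binomial intervals and shares exact Clopper-Pearson intervals at 95%, for counting error only. A gene counts as higher or lower at 2-fold or more with at least 20 UMIs over both sums. No test was run and no p-value is given, as each genotype has 1 library. Genes named from a list were drawn from the 4 with the largest absolute ratio in the class and at least 50 UMIs. Not all 4 are named. Shares at equal depth came from thinning each cell to 3000 UMIs, which left out 0 cells. Free RNA was taken from barcodes under 100 UMIs. Doublets were kept in the main values, and an alternative removed the highest Scrublet scores, 443 and 285 cells. The caller's own thresholds marked 2 and 261, so they did not work in the library labelled wildtype and were not used. On simulated counts with 200 genes changed 4-fold, the 2-fold rule found 99.5% in endothelial and 99.0% in mesenchymal cells. Of the unchanged genes, 0.910% and 1.74% passed 2-fold. The simulated counts held counting error only, so they do not show how the rule fares with a spread between pools or with changes near 2-fold. Python 3.11.15, scanpy 1.11.5 and scipy 1.17.1 were used. Gene positions came from GENCODE vM21.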

Additional observations from a re-analysis of the deposited data

How the results depend on the processing

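Besides the main values, 9 settings were run, among them 1 chosen after seeing the data, which left out cells over 5% hemoglobin UMIs. With cells thinned to 3000 UMIs, 1 member, Sox9, was higher in endothelial cells (2 in the main values), 1 was lower in mesenchymal cells (0), 2 were lower in epicardial cells (1), and 2 were higher in cushion than in other endothelial cells labelled wildtype (4). A stricter gate gave 1 higher in endothelial and 2 lower in epicardial cells. Without the highest doublet scores 4 were higher in cardiomyocytes (2) and 2 lower in epicardial cells. Free RNA subtraction gave 4 higher in cardiomyocytes, and a limit of 10% mitochondrial UMIs gave 2 lower there (0). The cause was not tested. Under 8 of the settings, 61 results of single genes gave 488 values. Of these, 443 moved by less than their counting interval, 44 moved more, and 1 changed sign: Snai2 in chamber cells, 1.15, was -0.69 at 3000 UMIs. Thinning to 3000 UMIs moved the most: 35 of the 61 results stayed within their interval, 25 moved more and 1 changed sign. Snai1 and Sox9 rest on 3 to 37 UMIs in cushion and chamber endocardial cells, which limits the precision of their values. No paired analysis was possible because each genotype has 1 library, and no replicate could be left out.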
